A study of Mus musculus with 11 samples.

Results

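The 10 genes described here encode the transcription factor ATF4, 2 regulators downstream of it (Ddit3 and Trib3) and 7 enzymes of asparagine, serine, mitochondrial one-carbon and proline synthesis that ATF4 is known to control: Asns, Phgdh, Psat1, Shmt2, Mthfd2, Aldh18a1 and Pycr1. They were chosen by name, each has a row among the 47643 gene symbols of the expression table, and all 10 were among the 11979 genes tested. Fibroblasts had been sorted from normal back skin (NS) and from excisional wounds of the back 5 days after injury (5dw), to ask what injury and activin do to the fibroblast transcriptome. WT NS, Act NS and WT 5dw are represented by 3 libraries each, and Act 5dw by the 2 numbered 1 and 3, because quality control by the authors had removed number 2. Act mice carry an INHBA transgene under the keratin 14 promoter, so the transgene is driven in keratinocytes. Both genotypes were females of 9 to 12 weeks on a mixed CD-1 and C57BL/6 background. Each library pooled the RNA of 3 mice, so the spread between libraries is that between pools. The sorted cells were alive, carried CD140a (the product of Pdgfra) and were sorted, by the labels, against CD45, CD3, CD11b and F4/80. Per the labels, library preparation started from 100 ng of RNA for NS and 200 ng for 5dw, so this amount cannot be told apart from the tissue.

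ATF4 is the effector of the integrated stress response. Kinases that sense amino acid shortage, misfolded protein, haem shortage or viral RNA phosphorylate the initiation factor eIF2, which lowers translation in general but favours translation of the Atf4 mRNA, so that the level of this mRNA need not follow that of the protein. ATF4 then turns on amino acid synthesis, uptake and tRNA charging. In fibroblasts the same programme supplies glycine and proline, the most abundant residues of collagen.

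ATF4 binds composite sites with the letters TGATGNAA, called C/EBP-ATF response elements, which have been described in genes such as Asns and Trib3. These letters were searched on both strands of the RefSeq windows of 250 bases before to 50 bases after each start on GRCm38.p6. All 10 genes matched a window, and 3 held the letters (Asns, Trib3 and Pycr1), as did 3.97% of all 32851 windows. With C as the free base the letters stood in Pycr1 alone of the 10, and in 0.895% of all windows. The 3 stretches are shown 5′ to 3′ along the gene with the matching letters in capitals, because Asns and Pycr1 are the members discussed most below and Trib3 behaved otherwise.
Asns, chr6:7693214-7693243, minus strand: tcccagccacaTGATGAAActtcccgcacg
Trib3, chr2:152344028-152344057, minus strand: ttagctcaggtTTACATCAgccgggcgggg
Pycr1, chr11:120643770-120643998, minus strand: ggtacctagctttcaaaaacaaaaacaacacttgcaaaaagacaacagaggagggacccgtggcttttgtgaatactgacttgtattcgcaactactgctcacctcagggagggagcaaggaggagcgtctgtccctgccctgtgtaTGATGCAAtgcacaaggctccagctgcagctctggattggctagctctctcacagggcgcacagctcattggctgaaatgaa
The capitals of Trib3 are the element read on the opposite strand. A match says only that these letters are in the window, and binding was not measured in these libraries.

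Values are RPKM, read numbers scaled to gene length and library size. The mapped totals behind them, worked out from the values, were 18649321 to 39702138 reads per library and were highest in WT 5dw. Library Act NS 1 stood apart from the other NS libraries: its RPKM values summed to 225686, against 270822 to 278066 in the other 5 and 240740 to 256631 in the 5 5dw libraries. On the second principal component of all tested genes it lay at 35.7 and WT NS 1 at 22.4, with the other 4 NS libraries at -18.0 to -7.42. Inhba had 3.4 to 6.93 in WT NS and 36.3 to 91.1 in Act NS, while WT 5dw held 15.8 to 24.0 and Act 5dw 26.2 to 50.2. This is the mouse gene, whose regulation the paper ascribes to activin acting on its own gene. It therefore checks the genotype labels only indirectly. Each of the 8 fibroblast markers, Pdgfra and Col1a1 among them, was above 1 in every library. Their summed RPKM was 10551 to 16332 in NS and 22156 to 25526 in 5dw, with Col1a1, Col1a2, Col3a1 and Mfap5 higher and Pdgfra and Dcn lower in 5dw in both genotypes, and Lum lower in WT. Summed RPKM of 10 keratinocyte markers was 1240 to 4610 in NS and 124 to 1051 in 5dw, and 9 of the 10 were lower in 5dw in both genotypes. For 9 leukocyte markers the sums were 14.2 to 47.3 in NS and 63.1 to 116 in 5dw. Without Cd3e, which made up most of the 5dw sums, they were 7.94 to 13.9 in NS and 7.65 to 11 in 5dw. Cd3e itself, which encodes a chain of CD3, had 2.94 to 33.9 in NS and 55.5 to 105 in 5dw, whereas Ptprc, which encodes CD45, reached at most 0.0498. The labels name CD3 among the markers sorted against, but the sort described in the paper does not include it. The mRNA level does not tell whether the cells carried CD3, and the source of the Cd3e reads was not tested. Summed endothelial and mural markers were 14.9 to 25.1 in NS and 27.8 to 36.6 in 5dw. The part of these shifts and other cells in the results below was not tested, and in pooled RNA fewer cells of a type and less RNA per cell cannot be told apart.

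Groups were compared by limma-trend on log2(RPKM + 0.5), with p-values adjusted by the Benjamini-Hochberg method over the 11979 genes, and a gene with an adjusted p under 0.05 is called a DEG. The log2FC of a weakly expressed gene is pulled towards 0 by the added 0.5. Most genes were lower in 5dw than in NS on this scale: for all tested genes together the median log2FC was -0.40 (WT) and -0.31 (Act). A change is therefore also given relative to that median, or after median-ratio scaling of the libraries, which sets the median near 0.

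**Figure D1:**
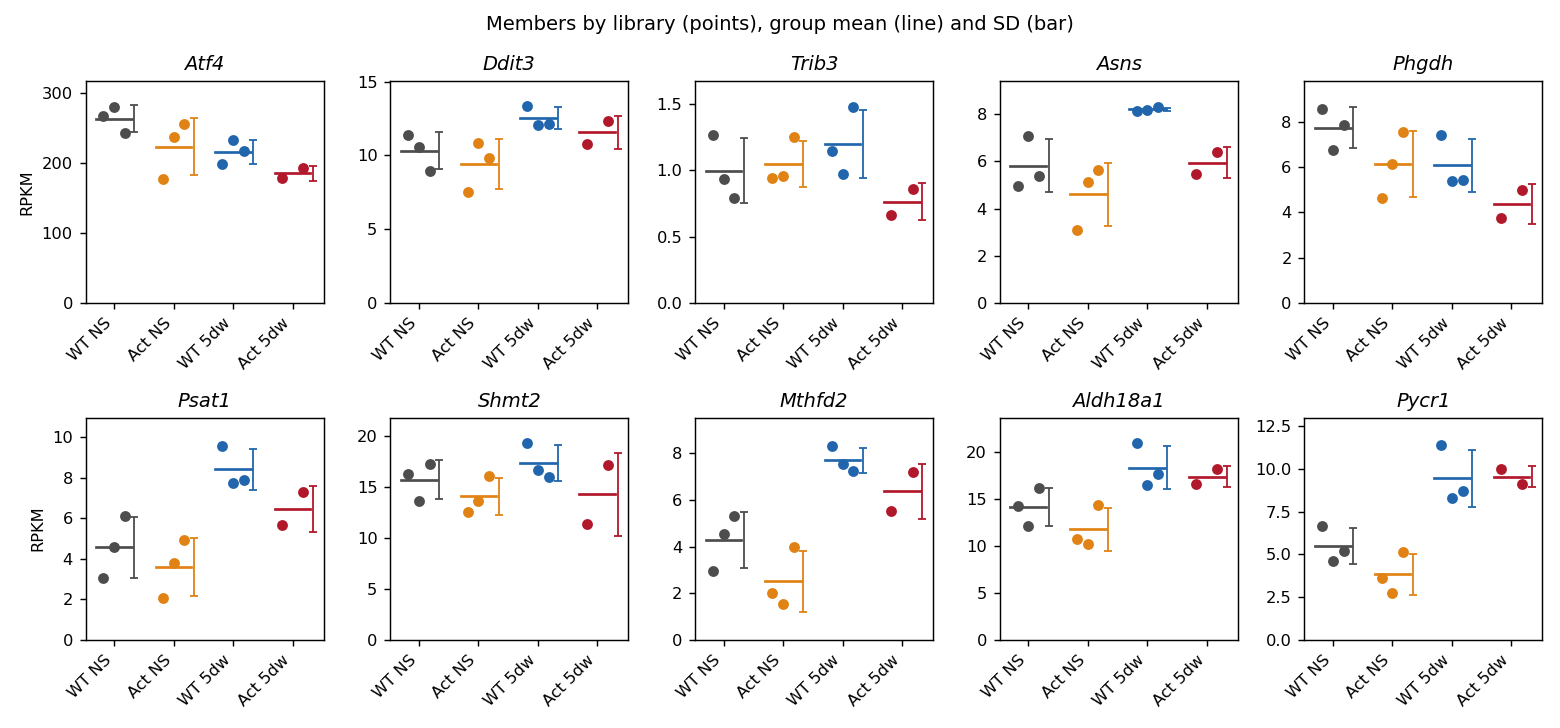
RPKM (vertical axis, linear, from 0) of the 10 genes in each of the 11 libraries (points), by group, with the group mean as a line and the SD as a bar beside it. Every 5dw library lies above every NS library for Mthfd2, Aldh18a1 and Pycr1, whereas Atf4 has its highest group mean in WT NS.

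In fibroblasts of WT wounds, 3 of the 10 genes were DEGs with a higher level than in WT NS (Psat1, Mthfd2 and Pycr1) and 0 were lower, and 5 were higher with the replicate number as a block (Asns and Aldh18a1 in addition). Only 1 was higher without WT NS 1, without WT 5dw 1 or without the filter on low values. Of all tested genes 9.45% were DEGs with a higher level and 48.8% with a lower level in this comparison. The median log2FC of the 10 was 0.32. In Act wounds 4 of the 10 were higher than in Act NS (the same 3 and Aldh18a1) and 0 were lower, against 9.04% and 36.5% of all genes, with a median of 0.33. No library is shared by the WT and the Act comparison. The number higher in Act fell to 2 without Act NS 1 or without Act NS 2, and 2 were lower without Act NS 1 (Atf4 and Phgdh). In WT the 3 wound libraries lay above the 3 NS libraries for 6 of the 10 genes and below them for 1 (11.4% and 55% of all genes), and in Act for 4 and 1 (14.4% and 49.8% of all genes). The members with a higher mRNA level in wounds of both genotypes thus came from serine (Psat1), one-carbon (Mthfd2) and proline (Pycr1) synthesis, and Atf4 itself was not a DEG in either, except in Act with a lower level when Act NS 1 was left out.

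Atf4 (chromosome 15, 80255184 to 80257541) was by far the most abundant of the 10, above 98.4% of tested genes in 5dw and 98.6% in NS. It had 267, 280.2 and 242 RPKM in WT NS and 198, 232 and 216 in WT 5dw. Act NS held 177, 237 and 255, and Act 5dw 178 and 193. The 3 WT 5dw libraries were below the 3 WT NS libraries, whereas in Act the lowest NS library, Act NS 1, lay below both 5dw libraries. The log2FC was -0.29 (95% interval -0.63 to 0.05, limma adjusted p = 0.128) in WT and -0.25 (-0.63 to 0.13, adjusted p = 0.255) in Act. Without Act NS 1, the library that stood apart, the log2FC in Act was -0.41 and passed the test (adjusted p = 0.0357). Relative to the median of all genes these differences were 0.11 and 0.05, and after median-ratio scaling the log2FC was 0.17 in WT and 0.10 in Act, so the sign of the Atf4 difference depended on the scaling.

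Ddit3 (chromosome 10, 127290774 to 127296288) encodes CHOP, a transcription factor that ATF4 induces under prolonged stress. It had 8.94 to 11.4 RPKM in WT NS and 12.1 to 13.4 in WT 5dw, without overlap, and 7.51 to 10.9 in Act NS against 10.8 and 12.3 in Act 5dw, with overlap. The log2FC of 0.28 in WT (95% interval -0.05 to 0.60) and 0.30 in Act (-0.07 to 0.66) did not pass the test, with limma adjusted p = 0.131 and 0.165. After median-ratio scaling it was a DEG in both, at 0.71 and 0.64. Ddit3 overlaps Mars on the opposite strand, and whether the counting used strand could not be learned from the sources.

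Trib3 (chromosome 2, 152337422 to 152344032) encodes a pseudokinase that binds ATF4 and restrains it. It was the least abundant member, at 29 to 122 reads per library. Its RPKM was 1.27, 0.934 and 0.792 in WT NS, 0.944, 0.957 and 1.25 in Act NS, 1.15, 0.972 and 1.48 in WT 5dw, and only 0.665 and 0.863 in Act 5dw. The NS and 5dw values overlapped in WT, and in Act both 5dw libraries were below the NS libraries. The log2FC was 0.18 in WT (limma adjusted p = 0.371) and -0.29 in Act (adjusted p = 0.232). After median-ratio scaling Trib3 was a DEG with a higher level in WT (0.49, adjusted p = 0.0375), as after quantile normalization (0.69, adjusted p = 0.0114), which turned the log2FC in Act to 0.16.

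Asns (chromosome 6, 7675169 to 7693254), asparagine synthetase, is a classical ATF4 target. It had 4.96, 7.08 and 5.40 RPKM in WT NS and 8.16, 8.16 and 8.30 in WT 5dw, the latter with an SD of only 0.0773. Act NS had 3.10, 5.11 and 5.63, and Act 5dw 5.49 and 6.41. Every WT 5dw library was above the WT NS libraries, while Act 5dw 1 fell within the range of Act NS. The log2FC in WT was 0.48 (95% interval 0.05 to 0.91), with a limma adjusted p of 0.0532, and 0.0255 with the replicate number as a block. Asns was a DEG there at 0.90 after median-ratio scaling, at 0.53 by limma-voom on the recovered reads, and without WT NS 2 (0.62, adjusted p = 0.0256), Act NS 1 (0.0107) or Act NS 3 (0.0407). In Act the log2FC was 0.37 (-0.11 to 0.84, adjusted p = 0.188), and Asns was a DEG at 0.70 after median-ratio scaling and at 0.74 after quantile normalization.

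The serine branch starts with Phgdh (chromosome 3, 98313170 to 98339990), phosphoglycerate dehydrogenase, and continues with Psat1 (chromosome 19, 15904678 to 15947337), phosphoserine aminotransferase. Phgdh had 8.56, 6.75 and 7.86 RPKM in WT NS, 7.41, 5.39 and 5.40 in WT 5dw, 4.64, 6.14 and 7.55 in Act NS, and 3.72 and 4.98 in Act 5dw. These ranges overlapped in both genotypes. Its log2FC was -0.33 in WT (limma adjusted p = 0.15) and -0.44 in Act (adjusted p = 0.115), close to the median of all genes. Without Act NS 1 it was -0.60 in Act and passed the test (adjusted p = 0.0295). In WT its sign turned with the scaling, to 0.092 after median-ratio scaling and 0.077 after quantile normalization. The value for Phgdh is uncertain, since 56.3% of its 31-base sequences also occur in other genes, Gm7901 and Gm9347 among them.

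The RPKM of Psat1 was 3.05, 4.55 and 6.08 in WT NS and 9.59, 7.75 and 7.87 in WT 5dw. Act NS held 2.07, 3.78 and 4.94, and Act 5dw 5.66 and 7.27. The 5dw and NS libraries did not overlap within either genotype. The log2FC was 0.85 ± 0.28 (SE, limma adjusted p = 0.0210) in WT and 0.82 ± 0.31 (adjusted p = 0.0491) in Act. The call in WT was lost without WT NS 1 (0.62, adjusted p = 0.0811), WT 5dw 1 (0.76, adjusted p = 0.0694) or the filter on low values (adjusted p = 0.0509). That in Act was lost without any one of Act NS 1 (0.52, adjusted p = 0.125), Act NS 2, WT NS 2, WT 5dw 1, WT 5dw 2 or WT 5dw 3. It was also lost without the filter (0.104), with only the compared groups fitted (0.0760) and with both NS libraries numbered 1 left out (0.05001). With Act 5dw 3 or Act 5dw 1 alone in its group, the log2FC in Act was 0.99 or 0.65. Psph, which encodes the phosphatase of the last step, was a DEG with a lower level in WT, with a log2FC of -0.80 ± 0.22 (SE, limma adjusted p = 0.00867), and was named after its value was seen. In Act it had -0.28 ± 0.24 (adjusted p = 0.356) and did not pass the test.

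Shmt2 (chromosome 10, 127517123 to 127522444) splits serine into glycine and a one-carbon unit in mitochondria, and Mthfd2 (chromosome 6, 83305691 to 83325908) oxidises that unit on its folate carrier. Shmt2 had 16.3, 13.6 and 17.3 RPKM in WT NS and 19.4, 16.7 and 16 in WT 5dw. Act NS had 12.6, 13.7 and 16.1, and Act 5dw 11.4 and 17.2. The groups overlapped in RPKM, and the log2FC was 0.14 in WT (limma adjusted p = 0.492) and -0.00 in Act (adjusted p = 0.989). After median-ratio scaling the WT libraries did not overlap and Shmt2 was a DEG with a higher level there (0.58, adjusted p = 0.0102), as after quantile normalization (0.42, adjusted p = 0.0452), and the log2FC in Act was 0.34 and 0.23.

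Mthfd2 had 2.96, 4.54 and 5.32 RPKM in WT NS and 1.99, 1.52 and 3.99 in Act NS. WT 5dw held 8.31, 7.54 and 7.27, and Act 5dw 5.53 and 7.21. The lowest of the 5 5dw libraries was above the highest of the 6 NS libraries. The log2FC was 0.81 ± 0.27 (SE, limma adjusted p = 0.0250) in WT and 1.27 ± 0.31 (adjusted p = 0.00662) in Act. The call in WT was lost without WT NS 1 (0.60, adjusted p = 0.0946), WT 5dw 1 (adjusted p = 0.0707) or WT 5dw 2 (adjusted p = 0.0545). It was also lost without the filter on low values (adjusted p = 0.0592) and with both NS libraries numbered 1 left out (adjusted p = 0.0996). Without Act 5dw 3, which leaves Act 5dw 1 alone in its group, the log2FC in Act was 1.09.

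Proline is made from glutamate by Aldh18a1 (chromosome 19, 40550257 to 40588463), which encodes pyrroline-5-carboxylate synthase, and Pycr1 (chromosome 11, 120635712 to 120643769), which encodes the mitochondrial reductase of the last step. Aldh18a1 had 14.3, 12.1 and 16.1 RPKM in WT NS, 10.7, 10.2 and 14.3 in Act NS, 20.9, 16.4 and 17.6 in WT 5dw, while Act 5dw held 16.6 and 18.1. All 5 wound libraries were above the 6 NS libraries, the closest being 16.4 against 16.1. The log2FC was 0.36 (95% interval 0.01 to 0.72, limma adjusted p = 0.0719, 0.0011 after median-ratio scaling, 0.0389 with the replicate block and 0.0463 without Act NS 3) in WT and 0.56 (0.16 to 0.95, adjusted p = 0.0260) in Act. The call in Act was lost without Act NS 1 (adjusted p = 0.0543) or Act NS 2 (0.0845). It was also lost with both NS libraries numbered 1 left out (0.0606) and with only the compared groups fitted (0.0615). With Act 5dw 3 or Act 5dw 1 alone in its group, the log2FC in Act was 0.62 or 0.50.

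Pycr1 was the member with the firmest difference. It had 6.66, 4.63 and 5.18 RPKM in WT NS, 3.61, 2.71 and 5.12 in Act NS, 11.4, 8.27 and 8.68 in WT 5dw, while Act 5dw held 9.99 and 9.10. The 5 wound libraries were all above the NS libraries. The log2FC was 0.73 ± 0.21 (SE, limma adjusted p = 0.0112) in WT and 1.26 ± 0.23 (adjusted p = 0.00156) in Act, and these were DEGs under every alternative setting tried, each library left out included. Pycrl (Pycr3), which encodes the cytosolic reductase, had a log2FC of -0.35 in WT and -0.22 in Act, and neither passed the test.

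Counted over all libraries of both genotypes, 3 of the 10 genes (Mthfd2, Aldh18a1 and Pycr1) had every 5dw library above every NS library, as had 8.45% of tested genes, and 0 of the 10 lay below, as did 38.9%. After median-ratio scaling there were 6 (Ddit3, Asns and Psat1 in addition), against 20.5% of tested genes. On that scale 8 of the 10, all but Atf4 and Phgdh, were DEGs with a higher level in WT 5dw, where 22.4% of all genes were, and 6 of the 10 in Act 5dw, where 19.9% were.

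**Figure D2:**
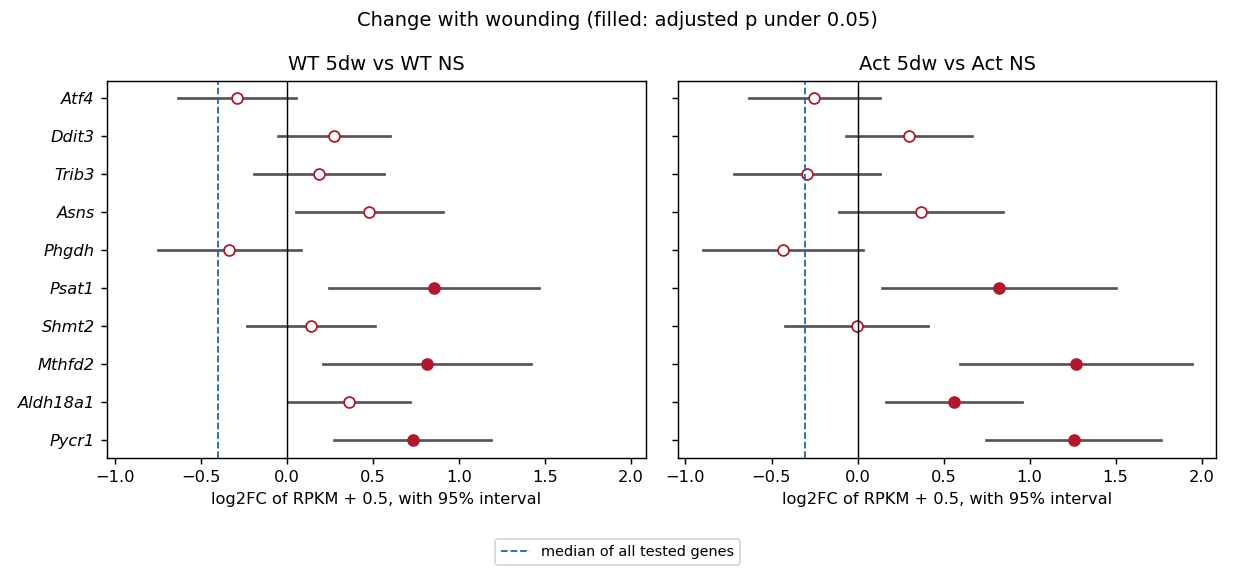
Log2FC of the 10 genes between 5dw and NS in WT (left) and Act (right), on log2(RPKM + 0.5), with 95% intervals from limma. Filled points are DEGs, and the dashed line is the median of all tested genes (-0.40 and -0.31): Psat1, Mthfd2 and Pycr1 are filled in both panels, Aldh18a1 in Act alone.

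Ratios of 2 genes within a library do not depend on how libraries are scaled. They were chosen after the values were seen and are given as a description. Psat1 to Phgdh was 0.356 to 0.774 in the 6 NS libraries and 1.29 to 1.52 in the 5 5dw libraries, although the sequences that Phgdh shares with other genes make its level, and so the size of this ratio, uncertain. Mthfd2 to Shmt2 was 0.112 to 0.333 in NS and 0.420 to 0.485 in 5dw. Pycr1 to Atf4 was 0.0114 to 0.0250 in NS and 0.0357 to 0.0576 in 5dw. Asns to Atf4 was 0.0175 to 0.0253 in NS and 0.0309 to 0.0413 in 5dw. In none of the 4 ratios did a library of 5dw overlap with one of NS, Act NS 1 included, and each shows unequal change of its 2 genes without saying which of them changed.

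**Figure D3:**
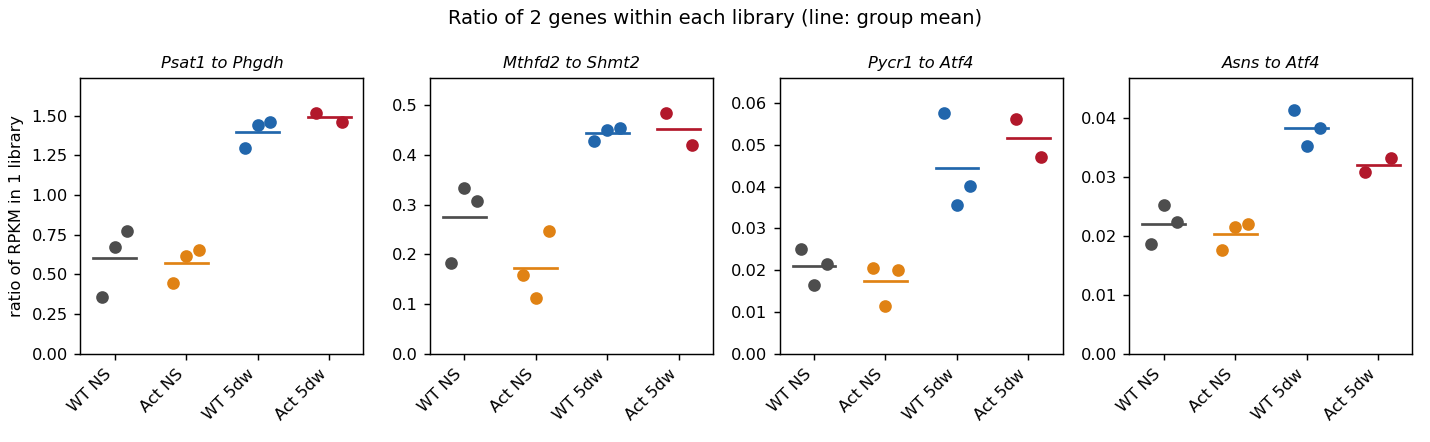
Ratio of the RPKM of 2 genes in the same library (vertical axes, linear, from 0) for the 11 libraries, with the group mean as a line. For each of the 4 ratios the 5dw libraries lie above the NS libraries in both genotypes.

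The other genes of the pathway were taken from 6 lists written by function. In WT 5dw against WT NS their medians were -0.43 to -0.00, beside -0.40 for all tested genes, and the counts below are to be read beside the 9.45% of all genes that were higher and the 48.8% that were lower in WT, and the 9.04% and 36.5% in Act. Single genes of these lists are given without scaling. A log2FC near -0.40 in WT or -0.31 in Act thus lies near the median of all genes, even where the gene is a DEG. Of 12 genes for the eIF2 kinases and their control, 0 were DEGs with a higher level in either genotype, and 3 were lower in WT and 1 in Act. Ppp1r15b, a subunit of the phosphatase that reverses eIF2 phosphorylation, had a log2FC of -0.88 ± 0.17 (SE, limma adjusted p = 0.00146), and Ppp1r15a, its stress-induced counterpart GADD34, of -0.58 ± 0.19 (adjusted p = 0.0219). In Act they had -0.78 ± 0.19 (adjusted p = 0.00733) and -0.32 ± 0.21 (adjusted p = 0.24). Eif2ak3, which encodes the kinase PERK, had -0.36 in WT and did not pass the test.

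Of 14 other stress genes linked to ATF4, 3 were higher and 6 were lower in WT 5dw, a lower share near that of all genes, and 3 were higher and 3 lower in Act 5dw. Ddit4 (REDD1, an inhibitor of mTORC1) had 9.2 to 18 RPKM in WT NS and 49.2 to 61.8 in WT 5dw, a log2FC of 2.08 ± 0.24 (limma adjusted p = 6.65e-05). Chac1, a glutathione-degrading enzyme, had a log2FC of 1.57 ± 0.27 (adjusted p = 0.000788) from levels under 1 in NS. It reached 1 RPKM, the level needed for testing, in 5dw libraries alone. Gdf15, a secreted stress cytokine, was lower, with 5.12 to 10.6 RPKM in WT NS and 0.816 to 1.48 in WT 5dw, a log2FC of -2.20 ± 0.31 (adjusted p = 0.000203). The third gene with a higher level was Eif4ebp1 (4E-BP1, 1.16 ± 0.20), and the lower ones included the transcription factors Atf5 (-1.32 ± 0.15), Cebpg (-0.91 ± 0.11), Cebpb (-0.90 ± 0.24) and Atf3 (-0.47 ± 0.17), all named after their values were seen. In Act, Ddit4 had 2.10 ± 0.27 (adjusted p = 0.000186), while Chac1 at 0.76 (adjusted p = 0.0634) and Gdf15 at -0.76 (adjusted p = 0.09) did not pass the test, nor did Cebpb and Atf3.

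The 15 further genes of serine, glycine and folate metabolism held 3 with a higher and 6 with a lower level in WT 5dw. In Act 5dw the counts were 3 higher and 3 lower. Aldh1l2, the mitochondrial formyl-folate dehydrogenase, had 2.39 to 3.14 RPKM in WT NS, 0.975 to 2.20 in Act NS, 12.2 to 15.7 in WT 5dw, while Act 5dw held 13.0 and 14.7. The 5dw libraries were all above the NS libraries, with a log2FC of 2.20 ± 0.20 in WT (limma adjusted p = 1.53e-05) and 2.89 ± 0.23 in Act (adjusted p = 9.73e-06). Mthfd1l, which makes mitochondrial formate in the step after Mthfd2, had a log2FC of 1.30 ± 0.21 in WT (adjusted p = 0.000529) and 1.36 ± 0.24 in Act (adjusted p = 0.00111). The cytosolic counterparts Shmt1 and Mthfd1, named after their values were seen, had a log2FC of -0.86 ± 0.14 (adjusted p = 0.000641) and -0.85 ± 0.22 (adjusted p = 0.00806) in WT. In Act, Shmt1 was lower at -0.83 ± 0.16 (adjusted p = 0.00208) and Mthfd1, at -0.65 ± 0.25, did not pass the test (adjusted p = 0.0544). Mitochondrial Amt, of the glycine cleavage system, had -0.81 ± 0.15 (adjusted p = 0.00112) and the mitochondrial folate carrier Slc25a32 -0.46 ± 0.16 (adjusted p = 0.0249) in WT, and Tyms, thymidylate synthase, had 0.56 ± 0.14 (adjusted p = 0.00493), all 3 named after their values were seen. In Act, Amt was lower as well, at -0.94 ± 0.17 (adjusted p = 0.00133), while Slc25a32 at 0.15 (adjusted p = 0.504) and Tyms at 0.39 (adjusted p = 0.0549) did not pass the test. Shmt1 and Amt were under 1 RPKM in every 5dw library, so they entered the test through NS libraries alone. Mthfd1l reached 1 RPKM in NS only in WT NS 3 (1.30), so it entered the test through its 5dw levels.

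Of 15 further proline, glutamate and ornithine genes 2 were higher and 3 lower in WT 5dw, and the same numbers were found in Act. Odc1 and Arg1, which use ornithine and arginine for polyamine and ornithine synthesis, had a log2FC of 1.55 ± 0.24 (limma adjusted p = 0.000353) and 1.24 ± 0.47 (adjusted p = 0.0401) in WT. The level of Arg1 was low, with 0.322 to 2.35 RPKM in WT NS and 1.42 to 5.29 in WT 5dw, and these ranges overlapped. Gpt, alanine aminotransferase, had -1.86 ± 0.19 (adjusted p = 2.94e-05). Prodh and Aldh4a1, the enzymes of proline breakdown, were the other lower genes, at -0.96 ± 0.21 (adjusted p = 0.00253) and -1.02 ± 0.24 (adjusted p = 0.00426), and were named after their values were seen. Prodh had 0.687 to 0.992 RPKM in WT NS and 0.172 to 0.238 in WT 5dw, so its level was low throughout. It reached 1 RPKM in Act NS 2 and Act NS 3 alone, so it entered the test through these libraries and through no WT library. Aldh4a1 and Gpt were under 1 RPKM in every 5dw library, so they entered the test through NS libraries alone.

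Of 10 amino acid transporters tested, 0 were higher and 4 lower in either genotype, beside the shares of all genes given above. Slc1a5, a glutamine carrier, had a log2FC of -0.94 ± 0.15 in WT (limma adjusted p = 0.000487). Slc6a9, a glycine carrier, had -0.54 ± 0.14 (adjusted p = 0.00814) and Slc38a2, the neutral amino acid carrier SNAT2, -0.48 ± 0.15 (adjusted p = 0.0193). Of 20 cytosolic aminoacyl-tRNA synthetases 1 was higher and 2 were lower in WT 5dw. The higher one was Gars, for glycine, with 16.8 to 23.4 RPKM in WT NS and 34 to 38.4 in WT 5dw and a log2FC of 0.83 ± 0.17 (adjusted p = 0.00178). The lower ones were Wars, for tryptophan, at -0.51 ± 0.15 (adjusted p = 0.0128) and Qars, for glutamine, at -0.39 ± 0.12 (adjusted p = 0.0186), which lies at the median of all genes.

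**Figure D4:**
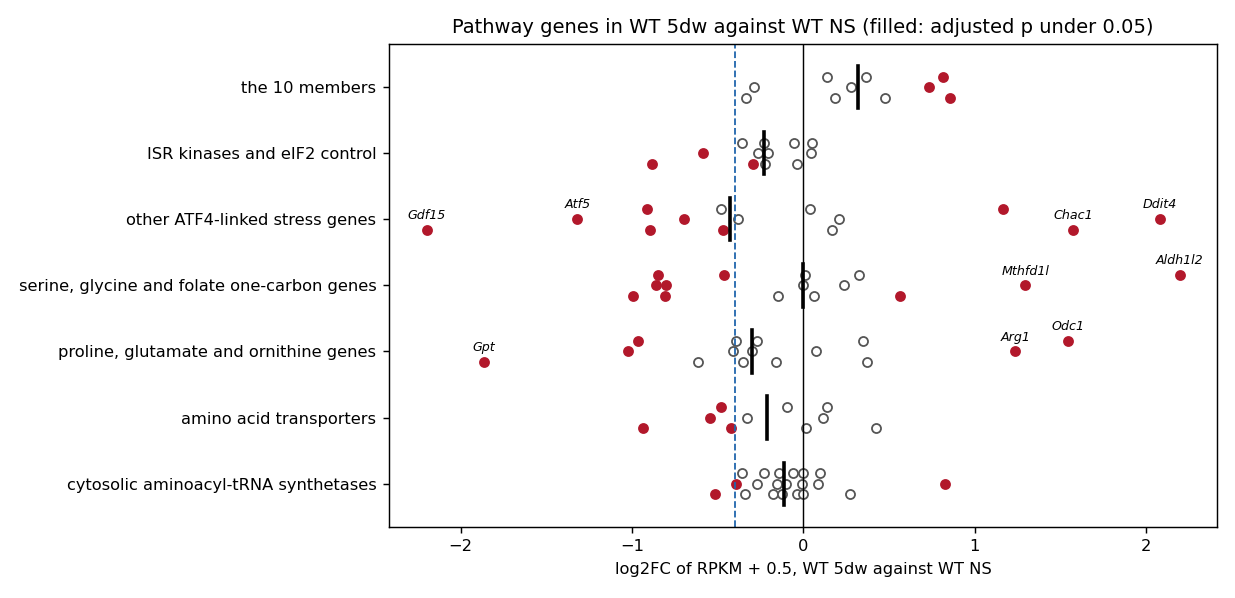
Log2FC between WT 5dw and WT NS for the tested genes of the 10 members and of the 6 pathway lists, with DEGs filled, the list median as a black bar and the median of all tested genes (-0.40) as a dashed line. The members' median is 0.32, and genes beyond 1.2 in size are named.

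Between genotypes 0 of the 10 genes were DEGs in NS or in 5dw by limma, as were nearly no other genes: 0.00835% of tested genes were higher and 0.00835% lower in Act NS, and 0.00835% and 0.0250% in Act 5dw. None of the tested genes of the 6 lists was a DEG between genotypes either. At an unadjusted limma p under 0.05 there were 2 of the 10 in NS and 0 in 5dw, beside 824 and 386 of all genes, and limma-voom called 0 of the 10. These comparisons use the same libraries as those of 5dw with NS.

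In Act NS the largest differences from WT NS were those of Mthfd2, at -0.72 (95% interval -1.32 to -0.12, limma adjusted p = 0.688), and Pycr1, at -0.50 (-0.95 to -0.04, adjusted p = 0.698). For 9 of the 10 the log2FC was negative, as for 73.4% of all genes. No member had all Act NS libraries on one side of the WT NS libraries (7.98% of all genes lay below and 0.993% above). Act NS 1 was the lowest NS library for 6 of the 10 and for 50.9% of all genes, and after median-ratio scaling for 4 of the 10 and 18.2%.

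In wounds the 2 Act libraries lay below the 3 WT libraries for 6 of the 10 genes (Atf4, Trib3, Asns, Phgdh, Psat1 and Mthfd2) and above them for 0. Among all tested genes 15.2% lay below and 7.87% above. The log2FC alone was negative for 9 of the 10 and for 59.9% of all genes. After median-ratio scaling 4 of the 10 still lay below (Trib3, Asns, Phgdh and Psat1), against 10.4% of all genes. Asns had the clearest gap, with 5.49 and 6.41 RPKM in Act 5dw against 8.16 to 8.30 in WT 5dw, a log2FC of -0.44 (95% interval -0.91 to 0.04, limma adjusted p = 1). Phgdh had the same log2FC of -0.44 (-0.90 to 0.03), and Trib3 had -0.42 (-0.84 to 0.00). Pycr1 and Aldh18a1, the proline genes, had the smallest differences, 0.03 (-0.48 to 0.54) and -0.07 (-0.47 to 0.33). Act 5dw 1 was the lowest wound library for 8 of the 10 genes, and for 30.3% of all genes.

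**Figure D5:**
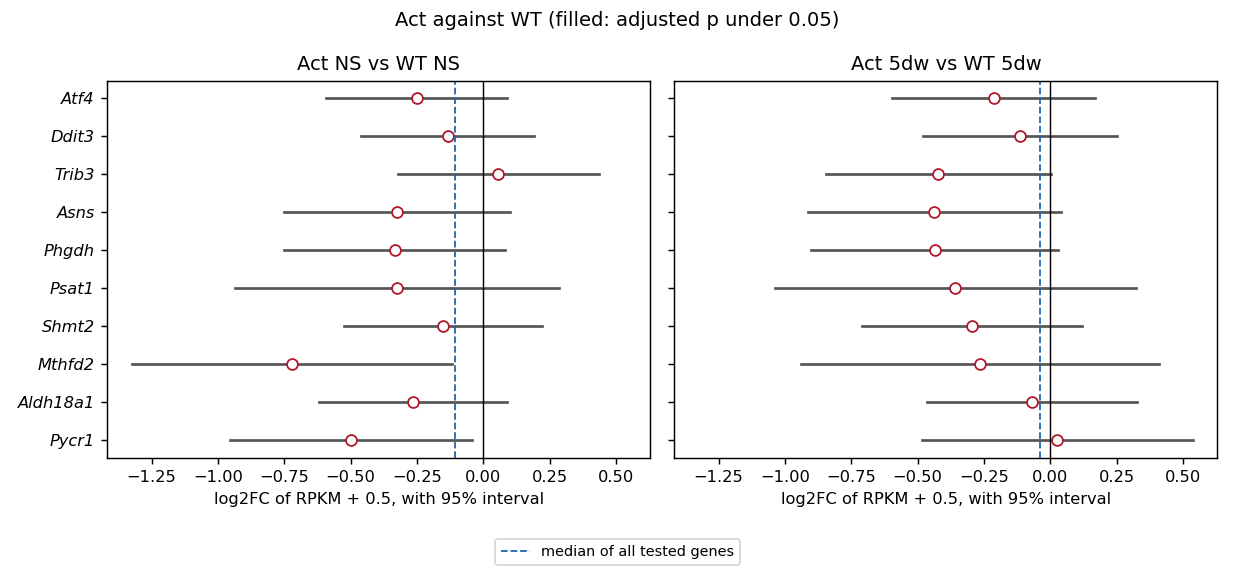
Log2FC of the 10 genes between Act and WT in NS (left) and in 5dw (right), with 95% intervals from limma and the median of all tested genes as a dashed line. No point is filled, since none is a DEG, and 9 of the 10 points lie below 0 in each panel.

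Whether wounding changed the genes differently in Act and WT was tested as the interaction of tissue and genotype. It called 0 of the 10 and 0% of all genes, and at an unadjusted limma p under 0.05 there were 0 of the 10 and 400 of all genes. The estimates ran from -0.48 for Trib3 (95% interval -1.04 to 0.09) to 0.52 for Pycr1 (-0.16 to 1.21), so that a difference of 1.21 in the wound response of Pycr1 lies within its interval.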

How the data were processed

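In CLC Genomics Workbench 12 the authors mapped stranded single reads of 100 bases to GRCm38, summed them by gene and deposited RPKM values, and they tested counts with edgeR, which was not run here. RPKM values are not counts, so log2(RPKM + 0.5) was fitted for the 11979 genes that reached an RPKM of 1 in 2 or more libraries, with limma-trend (limma 3.58.1, R 4.3.3), 1 mean per group over 11 libraries and 7 residual degrees of freedom. Each of 5 comparisons was adjusted by the Benjamini-Hochberg method. The fit was also run on simulated data, of which no outcome is reported here and on which no result rests. Deviations of same-numbered libraries correlated at 0.11 to 0.19 between WT NS and WT 5dw and at 0.33 to 0.55 between WT NS and Act NS. The numbers in the labels were therefore taken as a possible pairing of these groups, which the paper does not state. The main results leave this pairing out, and the replicate block is given as an alternative where it changes a call. The comparisons with Act 5dw have 2 pairs and were not taken as paired. The 10 genes, the lists and the tests were chosen with earlier results of these data known. Named from each list were the 3 tested genes with the largest absolute log2FC in WT 5dw against WT NS, the paralog Pycr3, and for 4 members the 3 genes with the highest Pearson r. Mapped totals were recovered as the numbers that turn RPKM times gene length into whole reads (tolerance 0.03), which gave whole reads for 99.9% of tested genes and was the base of limma-voom. Gene coordinates are those of GENCODE M21 on GRCm38, and promoters are from RefSeq. Itgam was not analysed here, and some genes that the rule names are not reported here. The treatment of reads that match several genes is not stated in the sources.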

Additional observations from a re-analysis of the deposited data

How the results depend on the processing

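Of 1035 values of single genes under other settings, 936 kept direction and side of the threshold, 26 lost a call, 29 gained one and 44 changed sign. For 5dw against NS, scaling and the stricter filter moved counts of calls over all genes. The cause was not tested. In WT 5dw against WT NS, median-ratio scaling gave 2684 genes higher and 2655 lower and 8 of the 10 members higher, and quantile normalization 2440, 2328 and 8. In Act the first gave 2384 and 2492, the second 2412 and 2066. Under median-ratio scaling the log2FC of Atf4 was 0.17 in WT and 0.10 in Act, that of Phgdh 0.092 in WT and that of Shmt2 0.34 in Act. Quantile normalization gave 0.077 for Phgdh in WT and 0.16 for Trib3 and 0.23 for Shmt2 in Act, and limma-voom 0.00073 for Shmt2 in Act. With a filter of 5 RPKM, which tests fewer genes, 695 were higher and 3076 lower in WT, and 702 and 2402 in Act. Without a filter 1 member was higher in WT. With only the compared groups fitted, 2 members were higher in Act. With both NS libraries numbered 1 left out, which was chosen after seeing the data, 2 members were higher and 2 lower in Act.

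Over all groups same-numbered libraries deviated together with r of -0.12 to 0.55, over 0.1 in 12 of 15 pairs, and 9 of 11 libraries were nearest to their own number. With the replicate block 5 members were higher in WT (Asns and Aldh18a1 in addition), Pycr1 between Act 5dw and WT 5dw was at -0.10, and 2 genes were lower in Act NS and 2 higher in Act 5dw. The block changed no other member's call.

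Between genotypes the counts over all genes were small throughout. In Act NS, genes higher and lower were 3 and 6 without a filter, 3 and 8 with both NS libraries numbered 1 left out (Ddit3 then at 0.083), and 0 and 0 with only the compared groups. Median-ratio scaling gave 2 higher, and the filter of 5 RPKM and limma-voom 0 lower. In Act 5dw there were 12 higher and 6 lower without a filter, 5 lower with a pseudocount of 0.1, and 0 higher after median-ratio scaling, after quantile normalization (Aldh18a1 then at 0.0041), by limma-voom and with only the compared groups. For the interaction there were 6 and 4 without a filter, and 1 and 1 with both NS libraries numbered 1 left out. The interaction estimate of Atf4 was -0.063 after median-ratio scaling and -0.13 without those libraries, that of Ddit3 -0.073, -0.023 (quantile) and -0.20, and that of Psat1 0.0051 by limma-voom.

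With single libraries left out, 1 to 5 members were higher in WT 5dw (1 without WT NS 1 or WT 5dw 1, 5 without Act NS 3) and 1 to 4 in Act 5dw (1 without Act 5dw 3, and 2 without Act NS 1, Act NS 2 or Act 5dw 1). Members lower in Act 5dw were 0 to 2, the 2 (Atf4 at -0.41 and Phgdh at -0.60) without Act NS 1. Over all genes, 665 to 1138 were higher and 2844 to 4937 lower in Act 5dw than in Act NS, 0 to 3 higher and 0 to 6 lower in Act NS than in WT NS, 0 to 1 and 0 to 3 in Act 5dw against WT 5dw, and 0 to 1 each way for the interaction. The log2FC of Shmt2 in Act wounds ranged from -0.29 to 0.28. Between Act NS and WT NS Ddit3 ranged from -0.24 to 0.0098 and Trib3 from -0.044 to 0.18, and between Act 5dw and WT 5dw Aldh18a1 ranged from -0.14 to 0.027 and Pycr1 from -0.057 to 0.16. The interaction ranged from -0.12 to 0.14 for Atf4, -0.12 to 0.13 for Ddit3, -0.35 to 0.037 for Asns, -0.29 to 0.086 for Phgdh, -0.33 to 0.21 for Psat1 and -0.43 to 0.14 for Shmt2. A lone Act 5dw library was assumed to vary like the other groups.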

Other observations

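Over the 11 libraries, the tested genes whose log2(RPKM + 0.5) was most like that of Atf4 were Ppp2cb (Pearson r = 0.94), Slc25a3 (0.94) and Gm10093 (0.93), and 13 genes had an r over 0.9. For Asns they included Zdhhc9 (0.94) and 2010107E04Rik (0.94), of 31 genes over 0.9. For Mthfd2 they were Rpn1 (0.97), Kdelr2 (0.97) and Golt1b (0.97), of 101 such genes, and for Pycr1 they were Copz2 (0.96), Vps25 (0.96) and Txndc5 (0.96), of 84. The libraries fall into an NS and a 5dw cluster, which these values share, so they are given as a description and without a p.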
